A study of Mus musculus with 64 samples.

Results

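Mouse V6.5 embryonic stem cells in which RPB1, the largest subunit of RNA polymerase II (Pol II), carried an auxin-inducible degron were sequenced after 12 h of the auxin indole-3-acetic acid (IAA, 500 µM) and without IAA. The comparison rests on 4 of the 64 libraries of the series, 2 from IAA-treated cells and 2 from untreated cells, and covers every gene of the count table. Which libraries belong to it follows from their column names, with no measured value used. Both groups carried the RPB1 degron and, per the labels' protocols, received doxycycline for 12 h to switch on OsTir1, a plant F-box protein that hands degron-tagged proteins to the ubiquitin ligase of the cell. The protocols give 2 µg/ml of doxycycline, whereas the text of the series gives 1 µg/ml. The cells grew with CHIR99021 (3 µM), an inhibitor of the kinase GSK3, and PD0325901 (0.5 µM), an inhibitor of the kinase MEK, a pair of drugs that holds mouse embryonic stem cells in the naive state. Fly S2 cells were added at 10% before extraction as a spike-in, and their counts were not analysed here. The promoter that drives OsTir1 in each line, whether the line is 1 clone, and whether wild-type cells carried OsTir1 are unstated. The 3 comparisons set beside this one are wild-type cells with 12 h of IAA against untreated wild-type cells, the RPB2 degron line with 12 h of IAA against the same line untreated, and the RPB1 line at 1 h of IAA against 0 h. Each is also 2 libraries against 2.

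RPB1 holds most of the catalytic site of Pol II and carries the long C-terminal tail of heptad repeats on which capping, splicing, elongation and cleavage factors assemble. Pol II makes all mRNAs and most long noncoding RNAs of the nucleus, while ribosomal RNA and transfer RNA come from Pol I and Pol III and the mRNAs of the mitochondrial genome from a separate, single-subunit polymerase. The poly(A) level of an mRNA is set by how fast it is made and how fast it decays. Sequencing of the poly(A) RNA measures each gene as a share of its library, so it separates neither of these, and fewer cells, or less RNA in each cell, cannot be told apart from a change in share.

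The IAA libraries held 4504542 and 4667722 counts and the untreated ones 4965741 and 4732575, within the range of 3399838 to 7164928 of the 52 libraries taken at 12 h. With fewer counts, the IAA libraries nevertheless had a count for more genes, 27012 and 27121, against 20571 and 20610 in the untreated libraries. Replicates lay close together. The median difference between the 2 libraries of a group, over genes at 10 CPM or more (counts scaled to a common library total), was 0.125 on the log2 scale in IAA cells and 0.0854 in untreated cells. The mRNAs of the mitochondrial genome took 2.30% and 2.04% of counts in IAA cells and 1.27% and 1.29% in untreated cells, and the part of this shift in the results below was not tested. The label of the cells was checked against markers. The 6 stem cell markers summed to 2589 and 2684 CPM in IAA cells and to 4772 and 4757 CPM in untreated cells, all of them present in every library. The 8 markers of embryonic fibroblasts, the usual feeder cells, summed to 25.6 and 26.4 CPM in IAA cells and to 10.4 and 14.1 CPM in untreated cells, with Col3a1, Dcn, Lum and Postn at 0 in both groups. Col1a1, a collagen, carried the higher sum (3.73 on the log2 scale), and over a wider list of 12 fibroblast genes the sum was 70.7 and 77.4 CPM in IAA cells and 78.7 and 80.2 CPM in untreated cells. Whether both libraries of a group stem from independent cultures is left unsaid in the labels. The spread behind each p-value is that between such libraries alone and may be technical.

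Polr2a, the gene of RPB1 itself, was measured first. IAA acts on the RPB1 protein, so the mRNA checks neither the labels nor the depletion, and no protein values were analysed here. Polr2a stood at 2299 and 2275 CPM in the IAA libraries, against 403 and 395 CPM in the untreated libraries, where the library totals behind the CPM include TMM scaling, a correction for the composition of a library. It rose (log2 fold change 2.52 ± 0.12, adjusted p = 1.36e-22) by edgeR's quasi-likelihood test with Benjamini-Hochberg adjustment over 17928 genes, which is the test and adjustment behind each adjusted p given for the 12 h libraries. In wild-type cells it stood at 472 and 477 CPM with IAA and at 403 and 424 CPM without. The RPB1 response exceeded the wild-type response by 2.32 ± 0.16 (log2, adjusted p = 7.8e-16). At 1 h of IAA the change was 0.02 ± 0.078 (adjusted p = 0.881), so the rise seen at 12 h was not detected at 1 h. Polr2a lies on mouse chromosome 11 at 69733997 to 69758637 (mm10).

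The promoter of Polr2a is shown beside that of Fos, a subunit of the AP-1 factor whose values follow below, because both hold the letters TATAAA of a TATA box at the same distance from the start. A TATA box is the sequence bound by the TATA-binding protein of TFIID. The letters begin 33 bases before the RefSeq start site in both genes. Sequences are from RefSeq on GRCm38.p6 and are written 5′ to 3′ along the gene, with the TATAAA letters in capitals. The stretch of Polr2a is chr11:69758634-69758753 on the minus strand and that of Fos is chr12:85473770-85473889 on the plus strand.
Polr2a: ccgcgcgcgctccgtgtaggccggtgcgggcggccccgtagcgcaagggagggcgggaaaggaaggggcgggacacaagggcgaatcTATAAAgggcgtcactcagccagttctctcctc
Fos: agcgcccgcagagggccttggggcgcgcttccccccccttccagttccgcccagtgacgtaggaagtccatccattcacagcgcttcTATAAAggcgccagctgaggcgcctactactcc
TATAAA was searched on both strands from 250 bases before to 50 bases after each start. It was found in the promoters of 8.03% of 9397 expressed protein-coding genes with a sequence (of 11652 such genes) and of 15.7% of all 27025 genes with a sequence. It was found in 9.07% of the expressed genes that rose, 7.63% of those that fell, and 13.8% (44 of 318) of those that rose at least 4-fold. These shares are a description of letters and say nothing of which factor acts there.

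Of the 17928 genes tested, 11894 (66.3%) differed between IAA and untreated cells at an adjusted p under 0.05. Of all genes tested 35.8% were higher in IAA cells and 30.5% were lower. Over all genes tested, 2961 were higher by 4-fold or more and 437 were lower by as much. These counts include genes near 0 in untreated cells, which can rise by 4-fold but can hardly fall by as much. Among the 13119 genes at 2 CPM or more in both untreated wild-type libraries, called expressed here and chosen without the RPB1 libraries, 26.1% were higher and 40.5% lower, with a median of −0.17. Of the 9397 expressed protein-coding genes with a promoter sequence, 318 were higher and 222 lower by 4-fold or more. The split into higher and lower genes depends on the scaling. The median of all genes was 0.09 with TMM, 0.24 with median-of-ratios size factors, 0.28 with total counts and −0.47 when mitochondrial-genome mRNAs were held level. Among called genes the higher ones made up 54% under TMM, against 61.8%, 63.7% and 32.9% under those 3 scalings. Differences smaller than these shifts therefore have no fixed sign, and each value is read against the median of all genes. The shares also went with level in untreated wild type. Of expressed protein-coding genes 11.6% fell up to 5 CPM, 52.7% at 50 to 100 CPM and 69.3% at 200 to 500 CPM. The 40.5% is therefore not matched to the level of a list. Of the rises named below, those of Polr2l, Polr2d, Taf12, Med26, Eaf1, Paf1, Clp1, Clk4, Smad1, Socs3, Ddit3, Gins3, Ccne2 and mt-Co1 were not called with mitochondrial-genome mRNAs held level.

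**Figure D1:**
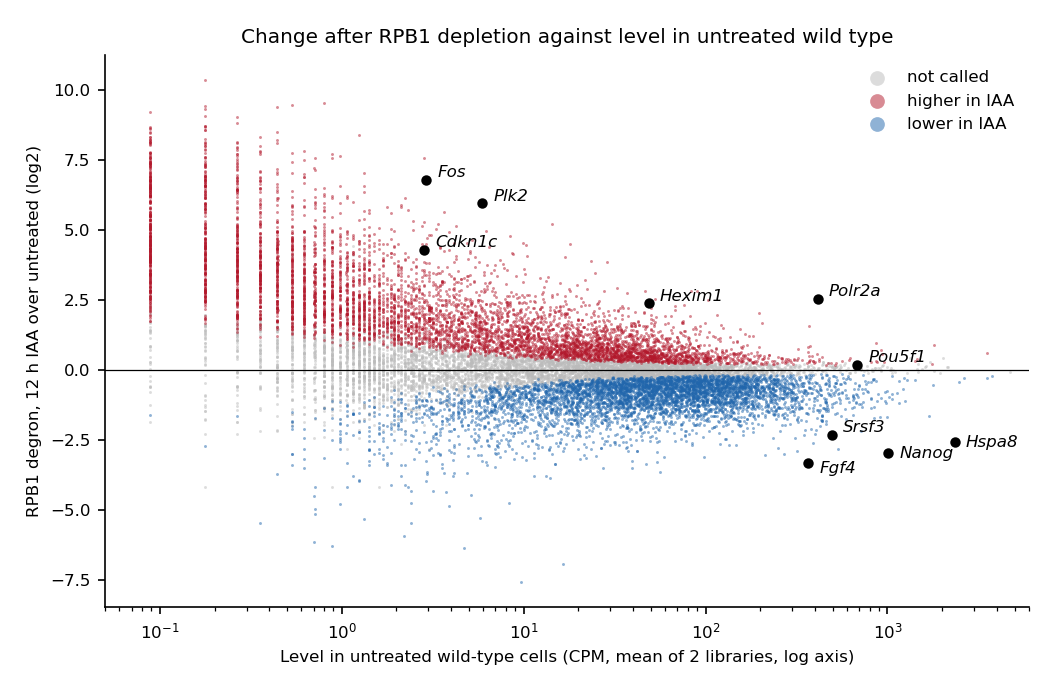
Each point is 1 of 17382 genes with a count in untreated wild type (a further 546 tested genes had none there and are not drawn), by its mean level in untreated wild-type cells (CPM, log axis) and its log2 change in the RPB1 degron line, 12 h of IAA over untreated. Red genes were called higher and blue genes lower; Fos, Plk2 and Cdkn1c sit at low levels and high changes, and Nanog, Hspa8 and Srsf3 at high levels and low changes.

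The first groups concern Pol II and the factors that work with it. Of the 12 Pol II subunit genes, all expressed, 3 rose and 3 fell (median 0.02; background 26.1% and 40.5%). Apart from Polr2a, the rises were of Polr2l, the gene of the small subunit RPB10 shared with Pol I and Pol III, and of Polr2d, the gene of RPB4, which with RPB7 forms the stalk. Polr2l stood at 74.4 and 78.2 CPM in IAA cells, against 45.1 and 43 CPM in untreated cells (log2 fold change 0.79 ± 0.20, adjusted p = 0.000456). Polr2d moved by only 0.50 ± 0.12 and was below 0 with mitochondrial-genome mRNAs held level. The falls were of Polr2c, the gene of RPB3, which begins the assembly of the enzyme together with RPB11, of Polr2i, the gene of RPB9, and of Polr2g, the gene of RPB7 (−0.36 ± 0.12), which was not called with median-of-ratios factors or DESeq2 (−0.21 with each), with total counts (−0.17) or without IAA replicate 1 (−0.29). Polr2c stood at 87.2 and 82.5 CPM in IAA cells and at 168 and 165 CPM in untreated cells (log2 fold change −0.97 ± 0.092, adjusted p = 1.15e-12), with no overlap. Polr2i averaged 24.1 ± 0.0766 CPM with IAA and 52.5 ± 1.16 CPM without (SD, n = 2 each).

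General transcription factors, which place Pol II at promoters, split into 13 genes that rose and 12 that fell of 30 expressed (median −0.12). Gtf2b, the single gene of TFIIB, which sets Pol II on the start site, had 92 and 81.2 CPM in IAA cells, against 19 and 18.9 CPM in untreated cells. This rise (log2 fold change 2.19 ± 0.14, adjusted p = 1.38e-18) was the largest of the group. The TFIID subunit genes Taf13 (1.74 ± 0.12) and Taf12 (0.82 ± 0.13) rose too. Lower levels were measured for Mnat1 (−1.25 ± 0.14) and Cdk7 (−0.75 ± 0.11), both subunits of the TFIIH kinase that phosphorylates the C-terminal tail of RPB1, and for Gtf2f2 (−1.21 ± 0.16), the small subunit of TFIIF. Mediator, the complex that links activators to Pol II, gave 9 rises and 12 falls of 31 genes (median −0.19). Med26, the subunit that recruits elongation factors, rose (85.5 CPM in IAA cells against 39.7 CPM in untreated cells; log2 fold change 1.11 ± 0.11, adjusted p = 3.53e-12). Med12 of the kinase module fell (log2 fold change −1.21 ± 0.23, adjusted p = 1.03e-05).

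Pausing and elongation factors comprise P-TEFb, the kinase that releases paused Pol II, its inhibitors and the factors that travel with the enzyme. Of 32 expressed genes 12 rose and 14 fell (median −0.06). Hexim1, which with the 7SK RNA holds P-TEFb inactive, stood at 318 and 354 CPM in the IAA libraries and at 67.1 and 62.8 CPM in the untreated ones (log2 fold change 2.37 ± 0.10, adjusted p = 6.3e-24). Mepce, the capping enzyme that stabilizes 7SK, rose as well (125 CPM in IAA cells against 51.4 CPM in untreated cells; log2 fold change 1.28 ± 0.10). So did Ell (1.57 ± 0.12) and Eaf1 (1.16 ± 0.095) of the super elongation complex and Paf1 (1.11 ± 0.11) of the PAF complex. Cdk12, a kinase of the C-terminal tail known to be needed for long genes, had 42.2 and 40.6 CPM with IAA, against 121 and 119 CPM without, a fall of both libraries below both controls (log2 fold change −1.54 ± 0.17, adjusted p = 9.02e-11). Nelfa of the pausing factor NELF also fell (−1.18 ± 0.10). Hexim1 was already higher at 1 h (log2 fold change 0.63 ± 0.095, adjusted p = 0.000203, edgeR fit of the 0 h and 1 h libraries), as were Ell (0.35 ± 0.10) and Paf1 (0.44 ± 0.11), whereas Mepce was not called there (log2 fold change 0.07 ± 0.12, adjusted p = 0.711).

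Integrator, which cleaves short transcripts near promoters, and the machinery that cuts and polyadenylates mRNA had 4 rises and 20 falls among 32 expressed genes (median −0.43). That share of falls, 62.5%, lies between those of expressed protein-coding genes at 50 to 100 CPM (52.7%) and at 100 to 200 CPM (66.7%). Ints10 stood at 42.8 and 45.3 CPM in IAA cells and 133 and 129.7 CPM in untreated cells (log2 fold change −1.58 ± 0.095, adjusted p = 5.58e-19). Wdr33, which binds the poly(A) signal, fell (−1.13 ± 0.081), and so did Xrn2 (−1.01 ± 0.082), the nuclease that digests RNA behind terminating Pol II. Clp1, an RNA kinase of the cleavage complex, was higher (0.61 ± 0.11). Of the 19 subunit genes that belong to Pol I or Pol III alone, 2 rose and 10 fell (median −0.35), with Polr1b, the second-largest Pol I subunit, at 76.9 and 72.4 CPM against 165 and 166 CPM in untreated cells.

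The SR proteins, which bind exons and recruit the spliceosome, mostly fell. Of 13 genes 11 fell and 1 rose (median −0.80). Srsf1 had 143 and 146 CPM in IAA cells, against 587 and 571 CPM in untreated cells (log2 fold change −2.0 ± 0.074, adjusted p = 1.22e-26). Srsf2 (−1.40 ± 0.07), Srsf6 (−1.46 ± 0.081) and Tra2b (−1.38 ± 0.079) followed, and for each of them both IAA libraries lay below both untreated libraries. Of the 36 core spliceosome genes 19 (52.8%) fell and 5 rose (median −0.24). That share is near the 52.7% of expressed protein-coding genes at 50 to 100 CPM and below the 66.7% at 100 to 200 CPM. Sf3a1, a subunit of the U2 particle, fell (log2 fold change −1.70 ± 0.082, adjusted p = 2.57e-22). The kinases of SR proteins did not move together. Srpk2 fell (−1.42 ± 0.11) and Clk4 rose (0.79 ± 0.12), with 2 rises and 3 falls among 8.

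Genes of mRNA decay were mostly lower. Of 53 expressed genes 31 (58.5%) fell and 7 rose (median −0.45). Of expressed protein-coding genes 52.7% fell at 50 to 100 CPM (median −0.30) and 66.7% at 100 to 200 CPM (median −0.50). A fall of the list beyond that of genes of like level was not tested. Exosc7, a subunit of the exosome that degrades RNA from its 3′ end, stood at 18.2 and 19.6 CPM in IAA cells and at 59.7 and 61.3 CPM in untreated cells (log2 fold change −1.67 ± 0.14, adjusted p = 7.05e-14). The members that rose include Btg1 and Tob2, antiproliferative proteins known to bring the CCR4-NOT deadenylase to mRNAs. Btg1 averaged 96.4 ± 15.2 CPM with IAA and 25.1 ± 1.63 CPM without (SD, n = 2 each). Tob2 averaged 74.2 ± 0.224 CPM with IAA and 24.7 ± 1.55 CPM without. Proteins that bind AU-rich elements, short-lived-mRNA signals of the 3′ untranslated region, had 6 falls and 2 rises of 9. Zfp36 (tristetraprolin), which speeds the decay of such mRNAs and is itself an immediate-early gene, stood at 80.2 and 78.4 CPM in IAA cells, against 4.0 and 3.57 CPM in untreated cells (log2 fold change 4.38 ± 0.21, adjusted p = 2.52e-22). Its relative Zfp36l1 had 360.5 and 379.9 CPM in IAA cells and 116 and 113 CPM in untreated cells (log2 fold change 1.69 ± 0.093, adjusted p = 1.98e-20). Elavl1 (HuR), known to stabilize such mRNAs, fell (log2 fold change −1.45 ± 0.096, adjusted p = 1.34e-17), as did Hnrnpd (−1.75 ± 0.093) and Tia1 (−2.20 ± 0.15).

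Genes that cells switch on within minutes of a stimulus stood higher. Immediate-early genes encode short-lived AP-1 and Egr factors and their companions, and their mRNAs carry AU-rich elements and turn over fast. Of 24 expressed members 20 rose and 3 fell (median 1.9, against −0.17 for all expressed genes). Fos had 118 and 114 CPM in the IAA libraries, against 1.60 and 0.420 CPM in the untreated ones (log2 fold change 6.79 ± 0.27, adjusted p = 1.12e-25). Jun, its partner in AP-1, had 90.5 and 108 CPM, against 6.61 and 4.62 CPM in untreated cells (log2 fold change 4.14 ± 0.17, adjusted p = 6.6e-25), and Junb had 213 and 219 CPM, against 26.4 and 19.9 CPM. Egr1, a zinc finger factor, had 189.5 and 181 CPM, against 3.00 and 4.62 CPM in untreated cells, and Jund, a further AP-1 subunit, had 493 and 546 CPM, against 193 and 188 CPM (log2 fold change 1.45 ± 0.17, adjusted p = 3.06e-10). In each of these genes both IAA libraries lay above both untreated libraries. The members that fell include Sgk1, a serum- and steroid-induced kinase, at 229 and 197 CPM in IAA cells and 482 and 477 CPM in untreated cells, and Klf6 (−0.59 ± 0.14). Fos and Jun were already higher at 1 h of IAA, by 1.89 ± 0.30 (adjusted p = 0.000311) and 1.2 ± 0.19 (adjusted p = 0.000324), whereas Sgk1 (−0.64 ± 0.10) and Klf6 (−0.66 ± 0.096) were already lower. Among the 24 members tested at 1 h, 6 rose and 5 fell, against 12.3% and 15.8% of expressed genes. In the network of Myc, which drives growth, Myc itself stood at 12.2 and 11 CPM with IAA and 11 and 10.3 CPM without and was not called (log2 fold change 0.12 ± 0.20, adjusted p = 0.596). The antagonists Mxd1 (82.3 and 77.1 CPM with IAA, 6.41 and 3.99 CPM without) and Mxd4 (26.9 and 26.8 CPM with IAA, 2.20 and 2.52 CPM without) both rose. Mga, a further partner of Max, fell (−1.99 ± 0.15).

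Plk2, a polo-like kinase, and Btg2, an antiproliferative relative of Btg1, are listed as targets of p53, the transcription factor of the DNA damage response, and Btg2 also as an immediate-early gene. Plk2 stood at 248 and 245 CPM in IAA cells, against 4.41 and 3.57 CPM in untreated cells, and Btg2 at 196 and 179 CPM, against 8.81 and 7.97 CPM. Their promoters are shown because both hold the full cyclic AMP response element TGACGTCA, which the factor CREB binds, and it lies 62 bases before the start in Plk2 and 166 bases before it in Btg2. In Btg2 it follows a CCAAT box (letters CCAAT), and a second CCAAT box lies 34 bases before the start. Capitals mark these letters. The stretch of Plk2 is chr13:110394924-110395043 on the plus strand and that of Btg2 is chr1:134079156-134079335 on the minus strand (RefSeq, GRCm38.p6).
Plk2: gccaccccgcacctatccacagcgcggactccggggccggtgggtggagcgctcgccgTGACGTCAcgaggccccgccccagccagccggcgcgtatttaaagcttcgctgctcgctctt
Btg2: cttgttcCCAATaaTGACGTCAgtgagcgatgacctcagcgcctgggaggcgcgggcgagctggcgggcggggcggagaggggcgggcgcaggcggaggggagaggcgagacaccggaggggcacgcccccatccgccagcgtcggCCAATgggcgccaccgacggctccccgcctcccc
TGACGTCA was found in the promoters of 3.68% of expressed protein-coding genes, 3.88% of those that rose and 3.61% of those that fell, shares that lie close together. CCAAT was found in 43.7% of expressed genes, 47.2% of those that rose and 41.5% of those that fell. The AP-1 site TGAGTCA was found in 4.25%, 4.99% and 3.87% of these groups, and in 7.86% of genes that rose at least 4-fold.

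With these genes included, the list of p53 targets had 20 rises and 4 falls among 26 expressed members (median 1.34). Cdkn1a (p21), the inhibitor of cyclin-dependent kinases through which p53 halts the cycle, had 255 and 273 CPM with IAA and 67.3 and 68.2 CPM without (log2 fold change 1.96 ± 0.095, adjusted p = 2.68e-22). The mRNA of p53 itself, Trp53, was lower (274 and 262 CPM, against 341 and 351 CPM in untreated cells; log2 fold change −0.37 ± 0.068, adjusted p = 6.08e-06). At 1 h Cdkn1a was lower and not higher (log2 fold change −0.43 ± 0.12, adjusted p = 0.016), and of 26 p53 targets tested there 2 had risen and 5 had fallen, against 12.3% and 15.8% of expressed genes. In the Bcl2 family, which decides whether mitochondria release death signals, genes of both kinds changed. Among 10 expressed pro-death genes 5 rose and 4 fell. Bbc3 (Puma) had 66.4 and 79.1 CPM in IAA cells, against 14.6 and 13.8 CPM in untreated cells, and Bcl2l11 (Bim) had 52.5 and 44.5 CPM, against 10.2 and 14.1 CPM. All 3 expressed pro-survival genes fell (median −1.17), among them Mcl1, whose protein and mRNA are known to be short-lived, at 210.4 and 206 CPM with IAA and 364 and 347 CPM without (log2 fold change −0.77 ± 0.069, adjusted p = 2.59e-13), and Bcl2l1, the gene of Bcl-xL (log2 fold change −1.17 ± 0.15, adjusted p = 4.96e-09). Bcl2 itself lay below the 2 CPM floor in untreated wild type and rose, to 5.23 and 2.43 CPM with IAA, against 0.601 and 0.420 CPM without (log2 fold change 2.84 ± 0.68, adjusted p = 0.000379).

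Heat shock proteins split by kind. The inducible genes, which cells express mainly after stress, had 5 rises and 1 fall among 9 expressed members. Their median was 0.60, and 0.04 with mitochondrial-genome mRNAs held level. Over all 11 members tested, those below the 2 CPM floor included, 7 rose, 1 fell (−0.21) and 3 were not called. The constitutive chaperones had 0 rises and 15 falls among 18 (median −0.64, and −1.21 with mitochondrial-genome mRNAs held level). Hspa2, an Hsp70 best known from the testis, stood at 52.5 and 58.5 CPM in IAA cells, against 5.81 and 5.04 CPM in untreated cells (log2 fold change 3.35 ± 0.18, adjusted p = 2.84e-20), and Dnajb4, an Hsp40 partner, at 38 and 40 CPM, against 5.21 and 3.57 CPM. Hspa9, the Hsp70 of mitochondria, fell to 392 and 402 CPM in IAA cells, against 993 and 1012 CPM in untreated cells, and Hspd1, its chaperonin partner Hsp60, to 666 and 632 CPM, against 1270 and 1292 CPM. Hspa1a, one of the classic heat-induced Hsp70 pair, had 120.3 and 110.5 CPM in IAA cells, against 1.60 and 2.31 CPM in untreated cells. Its twin Hspa1b had 116 and 113 CPM in IAA cells, against 7.41 and 9.44 CPM in untreated cells. Their promoters are shown because they are nearly the same sequence, 296 of 300 bases, and the genes are known as near-identical copies, so the count of each is uncertain where reads match both. Capitals mark the CCAAT box on the opposite strand (letters ATTGG), which begins 67 bases before the start in both. The stretches are chr17:34972157-34972276 and chr17:34959239-34959358, both on the minus strand (RefSeq, GRCm38.p6).
Hspa1a: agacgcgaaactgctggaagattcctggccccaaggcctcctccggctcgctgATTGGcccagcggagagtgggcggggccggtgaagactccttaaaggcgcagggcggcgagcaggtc
Hspa1b: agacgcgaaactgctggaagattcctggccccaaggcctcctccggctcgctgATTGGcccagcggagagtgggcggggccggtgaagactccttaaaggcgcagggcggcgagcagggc

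**Figure D2:**
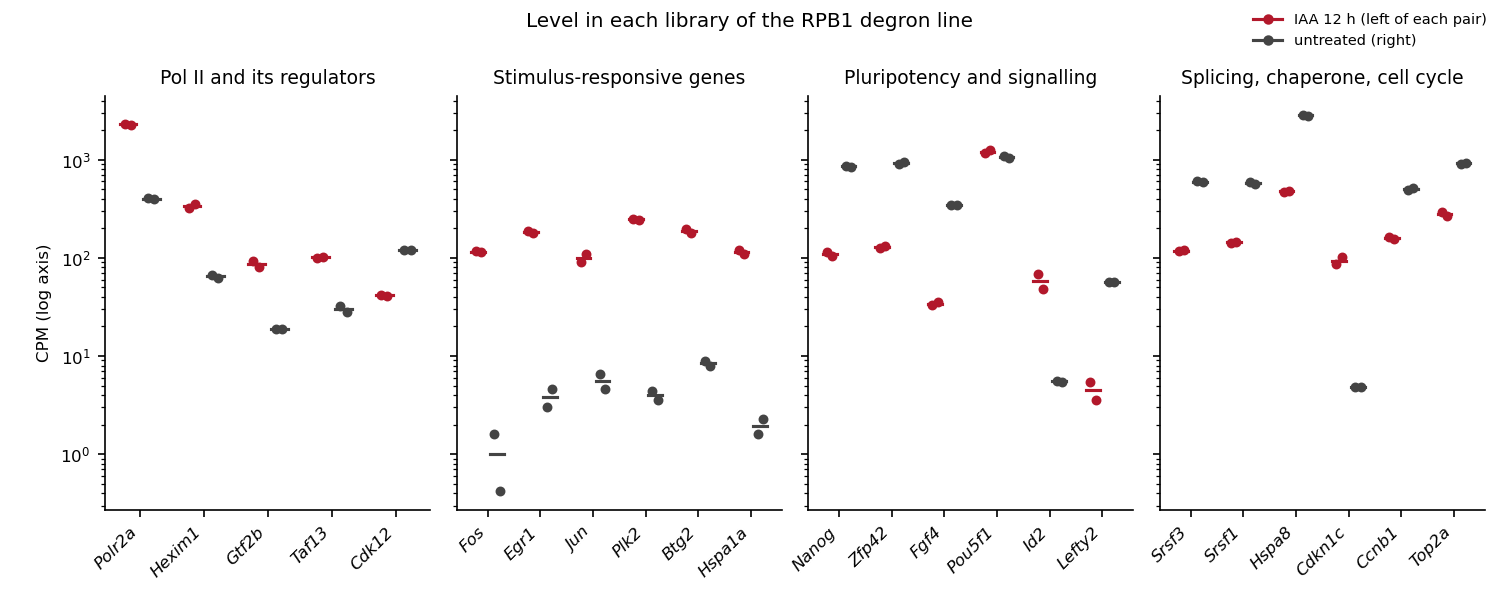
Level of 23 genes in each of the 4 RPB1 libraries (CPM, log axis), with the 2 IAA libraries left and the 2 untreated libraries right of each pair; points are libraries and lines their means. The IAA and untreated libraries do not overlap for any of these genes; Fos lies farthest apart, and Pou5f1 (log2 0.18, not called) nearly level.

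The integrated stress response raises amino acid synthesis and transfer RNA charging through the factor ATF4 when translation is curbed. Its list went down, with 4 rises and 17 falls of 26 expressed genes (median −0.84). Expressed protein-coding genes at 100 to 200 CPM had 66.7% lower (median −0.50), and those at 200 to 500 CPM had 69.3% lower (median −0.57). Mthfd2, a mitochondrial folate enzyme, stood at 64.9 and 63.8 CPM in IAA cells and 301 and 292 CPM in untreated cells (log2 fold change −2.20 ± 0.078, adjusted p = 2.86e-27). Pck2 (−2.04 ± 0.14) and Asns, the asparagine synthetase (−1.11 ± 0.071), fell too, as did Chac1, which breaks down glutathione (5.42 and 5.05 CPM, against 47.5 and 41.1 CPM in untreated cells). Among those that rose were feedback genes. Ddit4, an inhibitor of mTORC1, had 189 and 232 CPM with IAA and 29 and 30.4 CPM without, Ppp1r15a (Gadd34), which restores translation, rose by 1.24 ± 0.12, and Ddit3 (Chop) rose by 0.99 ± 0.19.

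Most genes of the naive pluripotency network fell. Of 15 core transcription factor genes 12 fell, 1 rose and 2 were not called (median −1.0). Nr5a2 had 14.5 and 15.9 CPM in IAA cells, against 96.7 and 92.8 CPM in untreated cells (log2 fold change −2.64 ± 0.13, adjusted p = 4.14e-22). Esrrb, an orphan nuclear receptor of the naive state, had 306 and 299 CPM, against 784 and 797 CPM (log2 fold change −1.39 ± 0.074, adjusted p = 7.8e-21). Gbx2, a homeobox factor that sustains self-renewal, rose to 70.3 and 69.8 CPM, against 29 and 25.2 CPM in untreated cells. Pou5f1, the gene of Oct4, stood at 1167 and 1247 CPM with IAA and 1087 and 1049 CPM without and was not called (log2 fold change 0.18 ± 0.14, adjusted p = 0.268). Klf2, a Krüppel-like factor of the naive state, fell to 45.5 and 40.4 CPM, against 358 and 339.8 CPM in untreated cells. Other stem cell markers gave 17 falls and 1 rise of 20 (median −1.35), with Gdf3, a TGF-β family signal, at 29.2 and 24.3 CPM, against 168 and 171 CPM (log2 fold change −2.66 ± 0.10, adjusted p = 5.52e-26). Fgf4, a growth factor made by stem cells, had 32.7 and 35.5 CPM with IAA and 342 and 343 CPM without (log2 fold change −3.33 ± 0.082, adjusted p = 6.03e-33). Lncenc1, a long noncoding RNA of naive cells, had 39.9 and 32.5 CPM with IAA and 357 and 370.2 CPM without.

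Signalling pathways showed targets on both sides. In the Nodal pathway, Lefty2, a secreted antagonist, fell to 5.42 and 3.55 CPM in IAA cells, against 57.3 and 56.5 CPM in untreated cells (log2 fold change −3.66 ± 0.17, adjusted p = 3.18e-23), within a list of 2 rises and 7 falls among 14. In the BMP pathway the ligand Bmp4 was lower (log2 fold change −2.0 ± 0.27, adjusted p = 9.66e-09), whereas the transducer Smad1 (1.14 ± 0.13) and the targets Id1 and Id2, inhibitors of helix-loop-helix factors, were higher. Id2 had 68.4 and 48.3 CPM with IAA and 5.61 and 5.46 CPM without (log2 fold change 3.39 ± 0.22, adjusted p = 9.7e-18), and Id1 had 74 and 67.5 CPM, against 18.6 and 19.7 CPM. The list of 13 had 5 rises and 3 falls. In the LIF pathway, which sustains mouse stem cells through STAT3, Lif itself (20.9 and 19.1 CPM, against 2.20 and 2.52 CPM in untreated cells) and its feedback inhibitor Socs3 (0.94 ± 0.12) rose. The targets Bcl3 (−1.67 ± 0.15) and Pim1 (−1.0 ± 0.10) fell, giving 6 rises and 5 falls of 14. Feedback genes of FGF and ERK, a pathway that PD0325901 blocks in these cultures, had 1 rise and 7 falls of 11 (median −0.41). Their median was −0.27 in wild-type cells with IAA, and against the wild-type response 4 were lower and 2 higher.

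Genes of chromatin repression were mostly lower. Of 24 expressed Polycomb genes, whose products silence developmental genes, 17 fell and 3 rose (median −0.60). Suz12, a core subunit of the histone methyltransferase PRC2, stood at 81 and 77.4 CPM in IAA cells and 266 and 282 CPM in untreated cells (log2 fold change −1.79 ± 0.12, adjusted p = 6.61e-18), with its partners Eed (−1.17 ± 0.086) and Ezh2 (−0.92 ± 0.079) lower as well. The enzymes that write or erase DNA methylation gave 7 falls and 1 rise of 9, with Tet1 at 166 and 150.4 CPM in IAA cells and 474 and 476 CPM in untreated cells. Of expressed protein-coding genes 66.7% fell at 100 to 200 CPM (median −0.50) and 69.3% at 200 to 500 CPM (median −0.57). A fall of these 2 lists beyond that of genes of like level was not tested. Of the 39 Hox genes, many of them targets of Polycomb in stem cells, 7 were expressed in untreated wild type, 5 of these rose and 0 fell, Hoxc13 among them (39.5 and 44.1 CPM, against 10.4 and 9.65 CPM in untreated cells). Against the wild-type response 4 of the 7 were higher, and their median in wild-type cells with IAA was 0.37. Summed over all Hox genes, many of them near 0 in untreated cells, the level was 138 and 144 CPM in IAA cells and 32.4 and 32.3 CPM in untreated cells. Low genes rose often in general, since 46.4% of expressed protein-coding genes up to 5 CPM were higher and 11.6% lower. A link to the Polycomb genes was not tested.

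Ribosomes and mitochondria, made of parts from several lists, did not move as units. Of 52 ribosome biogenesis genes 43 fell and 1 rose (median −0.66). Cytosolic ribosomal proteins gave 22 rises and 3 falls of 84, with a median of 0.15 that turned to −0.43 with mitochondrial-genome mRNAs held level. Many ribosomal protein genes have processed pseudogenes, so their counts depend on how reads with several matches were treated. Mitochondrial ribosomal proteins gave 4 rises and 47 falls of 77 (median −0.44). Mrpl12 stood at 52.1 and 51.6 CPM in IAA cells, against 141 and 144 CPM in untreated cells (log2 fold change −1.46 ± 0.14, adjusted p = 1.09e-12). The respiratory chain encoded in the nucleus had 39 rises and 8 falls of 79, with a median of 0.28 that was −0.28 under the same scaling. Ndufv3 of complex I had 128 and 139.7 CPM in IAA cells, against 46.7 and 52.3 CPM in untreated cells (log2 fold change 1.43 ± 0.13, adjusted p = 5.93e-13). The mRNAs of the mitochondrial genome gave 6 rises of 10 and no fall (median 0.66), with mt-Co1 at 6257 and 5659 CPM in IAA cells and 3944 and 3877 CPM in untreated cells. Cytosolic transfer RNA synthetases, which load amino acids, gave 16 falls and 2 rises of 20 (median −0.59), with falls of Iars (−1.21 ± 0.083) and Aars (−1.05 ± 0.067). Translation factors gave 19 falls (55.9%) and 4 rises of 34, and Eif2s2, a subunit of the factor that delivers the first transfer RNA, stood at 294 and 276 CPM, against 930.5 and 943 CPM in untreated cells. Of expressed protein-coding genes 52.7% fell at 50 to 100 CPM, 69.3% at 200 to 500 CPM and 56.2% over 500 CPM. None of the lists of this paragraph was tested against genes of like level.

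Genes of DNA replication and mitosis mostly fell, while several inhibitors of the cycle rose. DNA replication genes gave 26 falls and 4 rises of 36 (median −0.55). Mcm3 of the replicative helicase had 242 and 248 CPM in IAA cells, against 550.5 and 545 CPM in untreated cells. Gins3, a subunit of the same helicase, rose (log2 fold change 0.98 ± 0.12, adjusted p = 2.76e-09) where its partner Gins4 fell (log2 fold change −1.53 ± 0.11, adjusted p = 2.59e-16). Mitosis genes gave 21 falls and 1 rise of 26 (median −0.58). The falls were 72.2% of the replication list and 80.8% of the mitosis list. Of expressed protein-coding genes 66.7% fell at 100 to 200 CPM (median −0.50) and 69.3% at 200 to 500 CPM (median −0.57). A fall of either list beyond that of genes of like level was not tested. Top2a, which untangles chromosomes, stood at 296 and 266 CPM with IAA and 907 and 924 CPM without, and Ccnb1, the cyclin of mitotic entry, at 164 and 157 CPM with IAA and 488 and 518 CPM without. Among 10 G1 cyclins and inhibitors, 5 rose and 4 fell. The inhibitor Cdkn1c (p57) had 87 and 101 CPM in IAA cells, against 4.81 and 4.83 CPM in untreated cells (log2 fold change 4.28 ± 0.20, adjusted p = 6.49e-23), and Cdkn2c (p18) had 23.6 and 29.2 CPM, against 3.20 and 3.36 CPM (log2 fold change 3.00 ± 0.26, adjusted p = 5.64e-14). The cyclins Ccnd3 (−1.06 ± 0.095) and Ccnd1 (−0.82 ± 0.081) fell, and Ccne2, the cyclin of entry into S phase, rose (1.01 ± 0.16).

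Noncoding transcripts were measured too. Host genes of small nucleolar RNAs, whose spliced RNAs are known to decay fast by nonsense-mediated decay, gave 7 falls and 1 rise of 13 (median −0.85). Snhg5 stood at 31.8 and 33.7 CPM in IAA cells and 95.7 and 83.5 CPM in untreated cells (log2 fold change −1.45 ± 0.14, adjusted p = 1.65e-12). At 1 h it was already lower, at 22.3 and 23.3 CPM, against 95.8 and 100.5 CPM at 0 h (log2 fold change −2.11 ± 0.099, adjusted p = 1.45e-10, edgeR fit of the 0 h and 1 h libraries), and the 12 hosts tested there had 8 falls and no rise. Long noncoding RNAs kept in the nucleus gave 9 falls and 1 rise of 13 (median −0.85). Their median was −0.30 in wild-type cells with IAA, and against the wild-type response 4 were lower and 2 higher. Firre had 19.2 and 17 CPM with IAA and 113 and 119 CPM without, and Neat1, the scaffold of paraspeckles, had 28.3 and 31.4 CPM with IAA and 131 and 138 CPM without. Among annotated classes, the 32 expressed noncoding RNAs of bidirectional promoters had 46.9% higher and 12.5% lower (median 0.49). The 177 expressed intergenic noncoding RNAs had 26.6% higher and 36.2% lower. All expressed genes had 26.1% higher and 40.5% lower. Expressed protein-coding genes up to 5 CPM had 46.4% higher and 11.6% lower (median 0.72), near the shares of the bidirectional class. Neither class was matched to genes of like level. No source used here states whether the counting used strand, so reads of a noncoding gene that overlaps another gene cannot be told from that gene's reads.

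**Figure D3:**
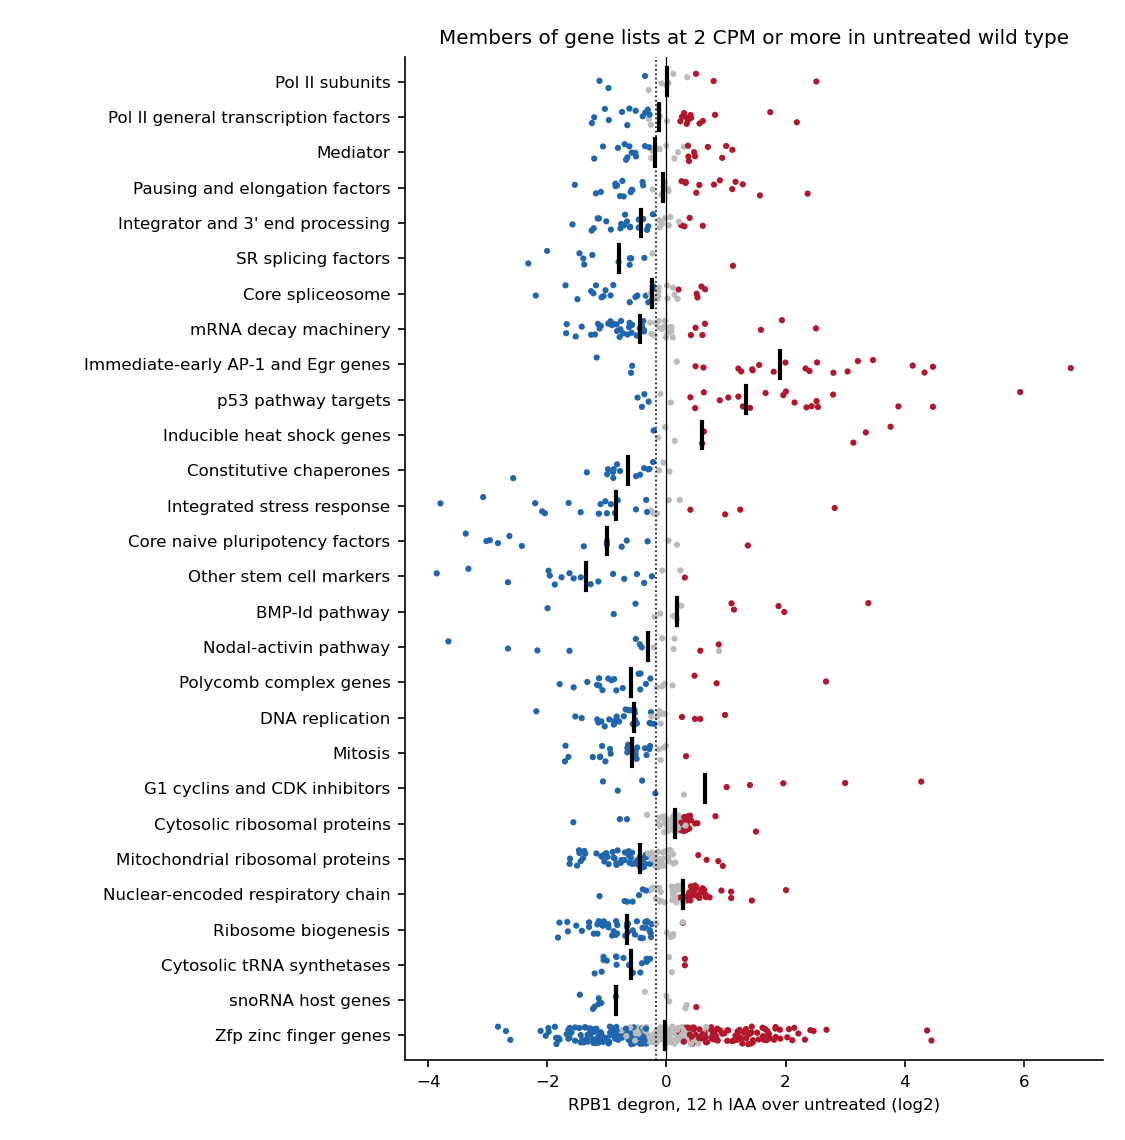
For 28 of the 60 lists, each point is a list member expressed at 2 CPM or more in untreated wild type, by its log2 change in the RPB1 degron line, 12 h of IAA over untreated; red points were called higher, blue lower and grey neither. Black bars are list medians and the dotted line is the median of all expressed genes, −0.17; immediate-early genes (1.9) and p53 targets (1.34) have the highest and other stem cell markers (−1.35) the lowest medians of the 28 lists drawn.

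Several of the largest changes fell outside the lists. Csrnp2, a nuclear protein with a cysteine- and serine-rich domain, had 469 and 453 CPM in the IAA libraries, against 34.8 and 29.6 CPM in the untreated ones (log2 fold change 3.84 ± 0.12, adjusted p = 1.82e-29). Baiap2 (IRSp53), which bends membranes for filopodia, had 292 and 288 CPM, against 12.8 and 12.4 CPM (log2 fold change 4.52 ± 0.14, adjusted p = 1.82e-29). Slc5a3, the sodium-coupled carrier of myo-inositol, had 233 and 249.5 CPM, against 6.21 and 6.72 CPM (log2 fold change 5.22 ± 0.18, adjusted p = 7.97e-28). Nrarp, a feedback inhibitor of Notch, had 151 and 150.4 CPM, against 8.81 and 7.76 CPM (log2 fold change 4.18 ± 0.14, adjusted p = 1.03e-27), and Elavl3, a neuronal RNA-binding protein, had 132 and 130.2 CPM, against 5.41 and 4.20 CPM. All of these were low in both untreated libraries and high in both IAA libraries. Genes ranked by fold change were open to naming only where the libraries did not overlap, so this adds no support. On the other side, Dmtn, an actin-bundling protein known from red cells, had 16.3 and 11.8 CPM in IAA cells, against 124 and 118 CPM in untreated cells (log2 fold change −3.11 ± 0.13, adjusted p = 9.76e-25). Myadm, a membrane protein, had 24.2 and 24.3 CPM, against 195 and 203 CPM (log2 fold change −3.03 ± 0.12, adjusted p = 1.54e-25). Among abundant mRNAs, Tubb5, a β-tubulin, fell to 679.7 and 665 CPM, against 2118 and 2079 CPM in untreated cells, and Larp1, a regulator of ribosomal protein mRNAs, to 109 and 116 CPM, against 506 and 510.4 CPM.

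The change followed the length of the gene. Over 11652 expressed protein-coding genes, of which 26.7% were higher and 41.6% lower (median −0.17), genes spanning up to 5 kb in the genome had a median of 0.14, with 35.4% higher and 25% lower. The median went down with each wider span, and the 203 genes over 300 kb had a median of −1.05, with 7.39% higher and 68.0% lower. Across genes, Spearman's rho of span with change was −0.21 in the RPB1 line and −0.000323 in wild-type cells, where the genes over 300 kb had a median of −0.21. Level in untreated wild type went with the change as well, with medians of 0.72 up to 5 CPM and −0.57 from 200 to 500 CPM and a rho of −0.324. Within a narrower range of levels, 20 to 100 CPM, the median was −0.11 up to 10 kb and −0.86 over 160 kb, where 75.9% of 307 genes were lower. Exon number gave 0.09 for genes of 1 exon and −0.41 over 30 exons. GC content of the transcript gave −0.40 up to 42% and 0.11 over 58%. These properties go together (rho of span with exon number 0.547, of span with GC content −0.313) and genes are not independent replicates, so the values are descriptions. At 1 h the median went from 0.23 up to 5 kb to −0.09 at 40 to 80 kb (rho of span with change −0.318). It fell little further in wider genes, with −0.11 at 80 to 160 kb and −0.11 over 300 kb, unlike at 12 h. The order by GC content was steeper at 1 h than at 12 h (rho 0.615 at 1 h and 0.171 at 12 h).

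**Figure D4:**
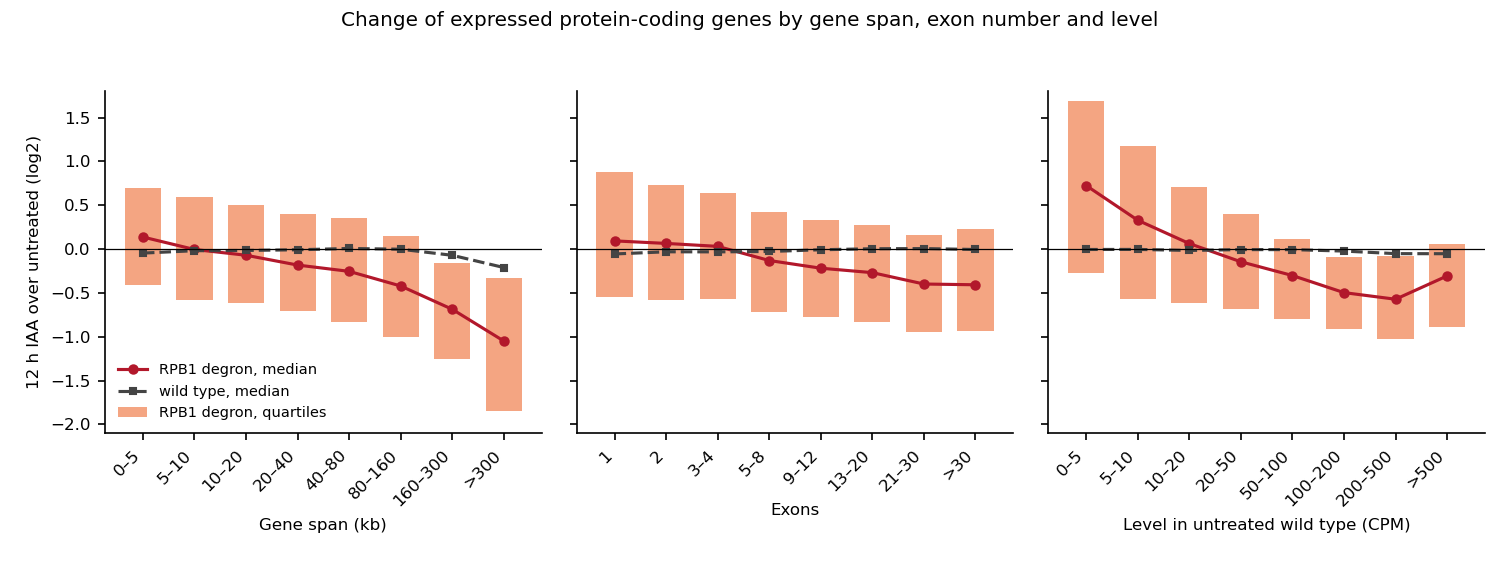
Median log2 change (red line) and quartiles (bars) of expressed protein-coding genes in the RPB1 degron line, 12 h of IAA over untreated, by gene span, exon number and level in untreated wild type, with the wild-type median (grey squares). The red line goes down from 0.14 to −1.05 across span and from 0.72 to −0.57 across level up to 500 CPM, while the wild-type line stays near 0 except at spans over 300 kb (−0.21).

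IAA itself was measured in wild-type cells, where 295 genes (1.65%) were called with TMM and 4 with mitochondrial-genome mRNAs held level. The RPB1 response differed from the wild-type response in 8795 genes (49.1%), or 5783 with mitochondrial-genome mRNAs held level, and the wild-type response had a median of −0.02 over expressed genes. Of the genes that differed, 48.8% had the higher response in the RPB1 line with TMM, 57.4% with median-of-ratios factors, 58.9% with total counts and 27.4% with mitochondrial-genome mRNAs held level. Each difference is a contrast of 4 groups, so its error is larger than that of the RPB1 change alone. Fos again shows the sizes, with 2.39 and 1.65 CPM in wild-type cells with IAA and 2.65 and 3.20 CPM without, and a difference of responses of 7.31 ± 0.58 (adjusted p = 2.45e-14). Nanog, a core pluripotency factor, had 116 and 104 CPM with IAA and 866 and 851 CPM without in the RPB1 line, and 917 and 909 CPM with IAA and 1023 and 996 CPM without in wild-type cells (−2.82 ± 0.12, adjusted p = 1.57e-23).

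RPB2 forms the catalytic centre together with RPB1, and its degron line was measured at the same time point. The responses differed in 11227 genes (62.6%), of which 56.0% had the higher response in the RPB1 line with TMM, 53.9% with median-of-ratios factors, 81.0% with total counts and 99.1% with mitochondrial-genome mRNAs held level. Of the 6427 genes that rose in the RPB1 line, 21.8% also rose and 25.7% fell in the RPB2 line, where 27.9% of all genes were higher and 34.0% lower. Of the 5467 that fell, 46.7% also fell and 31.6% rose. Only 3419 of the genes that rose were expressed in untreated wild type, against 5311 of those that fell. Genes near 0 elsewhere can pass the count filter through the RPB1 IAA libraries and can hardly fall in the RPB2 line. The shares for genes that rose therefore depend in part on the filter. Spearman's rho of the 2 responses across all genes tested was 0.14, with the same limit. Immediate-early genes had medians of 1.9 in the RPB1 line and −1.75 in the RPB2 line, and p53 targets had 1.34 in the RPB1 line and −0.82 in the RPB2 line. Constitutive chaperones had −0.64 in the RPB1 line and 1.32 in the RPB2 line. Zinc finger genes of the Zfp family had −0.03 in the RPB1 line and −2.51 in the RPB2 line. The mRNA of Mepce shows the contrast in single libraries, with 118 and 132 CPM with IAA and 53.7 and 49.1 CPM without in the RPB1 line, and 4.76 and 4.66 CPM with IAA and 77.4 and 74.5 CPM without in the RPB2 line (difference of responses 5.29 ± 0.23, adjusted p = 6.6e-24). The RPB2 values depend on the scaling far more than those of RPB1. The median of all genes in the RPB2 line was −0.19 with TMM, 0.00 with median-of-ratios factors, −1.03 with total counts and −2.32 with mitochondrial-genome mRNAs held level, so the list medians given here for that line are those with TMM.

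The RPB1 line at 1 h of IAA against 0 h, sequenced in a separate set whose library type is unstated, had 3894 genes called (24.9% of 15658). That count fell to between 1389 and 2726 when 1 of its 4 libraries was left out, lowest without the first 0 h library, and was 1309 with mitochondrial-genome mRNAs held level. The 1 h calls of Cdkn1a, Ell and Paf1 above were each lost in at least 1 of these fits. Of the 2101 genes that fell at 1 h and were tested in both sets, 49.6% fell and 15.8% rose at 12 h, where 34.9% of the genes tested in both sets were lower and 30.6% higher. Of the 1716 that rose at 1 h, 35.7% rose and 29.4% fell at 12 h. Spearman's rho of the 1 h and 12 h changes across genes was 0.212. Txnip, an inhibitor of thioredoxin and of glucose uptake, changed sign, with 55.3 and 65.3 CPM at 1 h and 169 and 176 CPM at 0 h (log2 fold change −1.52 ± 0.084, adjusted p = 1.26e-09), and 294 and 279.8 CPM at 12 h and 104 and 89.8 CPM in untreated cells (log2 fold change 1.56 ± 0.083, adjusted p = 6.26e-21). Socs3 did so too, lower at 1 h (−0.86 ± 0.10) and higher at 12 h (0.94 ± 0.12). Zfp genes had 192 falls and 8 rises of 332 at 1 h (median −0.50), and at 12 h 113 falls and 100 rises of 333.

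**Figure D5:**
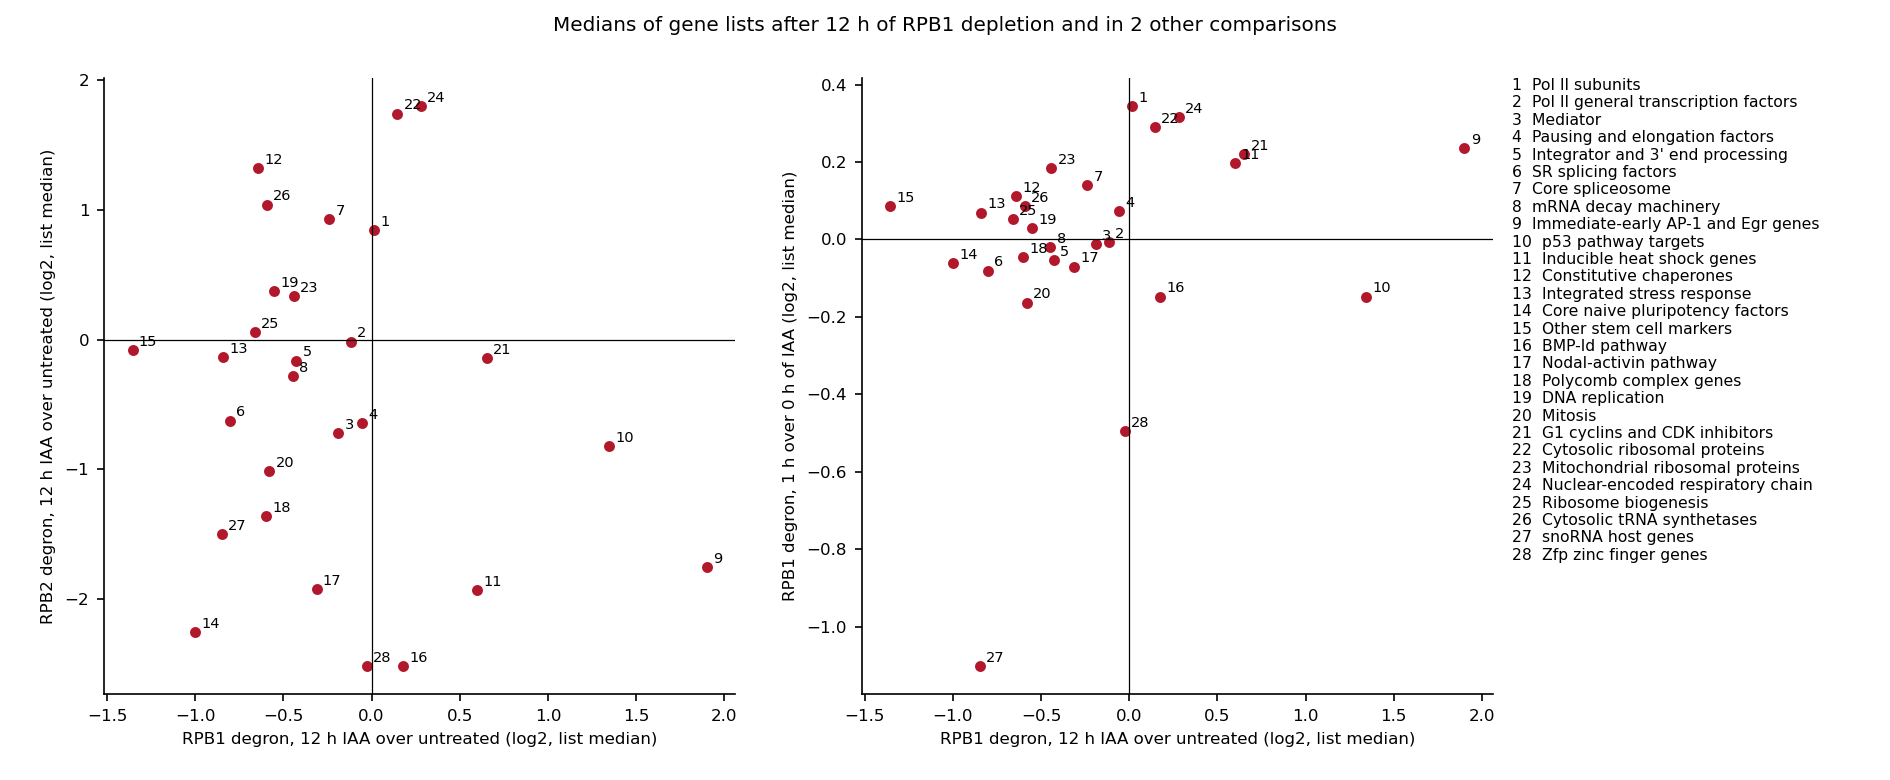
Medians of 28 gene lists (numbered, key at right) over members expressed in untreated wild type: the x axes give the RPB1 degron line at 12 h of IAA over untreated (log2), the y axes the RPB2 degron line at 12 h of IAA over untreated (left) and the RPB1 line at 1 h over 0 h (right). Immediate-early genes (9) and p53 targets (10) lie right of 0 for RPB1 and below 0 for RPB2 with TMM scaling, and snoRNA host genes (27) are lowest at 1 h (−1.10).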

How the data were processed

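Per the labels' protocols, RNA of the 12 h samples was sequenced from poly(A) libraries. The submitters' processing notes name featureCounts, STAR, Bowtie2, cutadapt 1.18, DESeq2, SAMtools and deepTools with the builds mm10 and dm6, in no stated order. The authors deposited counts per gene, whole reads that are not normalized; the annotation release and strand setting were not given in those sources. The table held 55335 genes, of which 55154 matched a GENCODE M21 symbol, and 4 of its columns matched no sample and were not used. Genes were kept by filterByExpr (99.8% of counts), scaled by TMM and tested with edgeR 4.0.16 (R 4.3.3) in 1 fit of the 52 libraries of the 12 h set with 26 groups, so 26 residual degrees of freedom share the spread. The 0 h and 1 h libraries (12 libraries, 6 groups, 8598431 to 13281252 counts) were fitted apart. P-values were adjusted by Benjamini-Hochberg over all genes, with a threshold of 0.05. Values after ± without another label are approximate standard errors of the log2 fold change. Each is the size of that change divided by the square root of the F statistic of its test. It was not estimated apart from the test and may be too small for genes with few counts. In simulated counts laid out like the 12 h set (14930 genes), 59.7% of genes changed 1.5-fold were called. So were 88.1% of those changed 2-fold, 100% of those changed 4-fold and 8 of 14730 unchanged genes. The changed genes were few and about evenly up and down, and 1 fixed dispersion (spread between replicates) served every gene. In the data 66.3% of genes were called, so the simulation does not cover errors of scaling under such wide change.

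Libraries were taken by column name. The gene lists, and the choice to describe this comparison, were made with earlier results of these data known. Genes open to naming, 587 in all, included Polr2a, the 12 highest and 12 lowest called genes at a mean of 50 CPM, and the 8 highest and 8 lowest at a mean of 300 CPM. From each list came up to 5 called members in each direction and up to 2 not called. Added were the genes with the largest gain or loss of CPM and the 6 largest differences from wild type and from RPB2 in each direction. The up to 5 genes called at 1 h with the smallest adjusted p in each direction were added too. The genes ranked by fold change had to show no overlap between the groups. Symbols made of Gm and a number, or ending in Rik, were left out of that ranking. Which of the 587 genes are described was chosen after their values were seen. With 2 libraries against 2, an exact two-sided permutation test of 1 value cannot go below 0.333, so none was used. For the same reason a lack of overlap between libraries is a description only. Lists were counted over members at 2 CPM or more in both untreated wild-type libraries. Promoter sequences were those of RefSeq (GRCm38.p6). Alternatives were other scalings, no filter on low counts, DESeq2 1.42.0, a replicate block, a fit of the groups compared alone, and leaving out each library in turn.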

Additional observations from a re-analysis of the deposited data

Results flagged for a closer look

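The responses of different cells to the same treatment were tested against each other, and those that differed are given here. The RPB1 and wild-type responses to 12 h of IAA differed in 8795 genes, and the RPB1 and RPB2 responses in 11227 genes (edgeR's quasi-likelihood test of the difference, adjusted p under 0.05). Over wild type, the RPB1 response was higher by 7.31 for Fos, 5.80 for Hspa1a and 5.75 for Plk2 on the log2 scale. It was lower for Chac1 (−3.69), Dmtn (−3.29), Fgf4 (−3.23), Klf2 (−3.25) and Lncenc1 (−3.26). In wild-type cells Klf2 had 331 and 303 CPM with IAA and 302 and 240.1 CPM without, and Chac1 had 36.3 and 40 CPM with IAA and 25.1 and 24.7 CPM without. Over RPB2, the RPB1 response was higher by 6.84 for Hspa1b, 6.76 for Hspa1a and 6.46 for Csrnp2. In the RPB2 line Csrnp2 had 4.76 and 5.13 CPM with IAA and 34.9 and 26.9 CPM without, so its level with IAA lay below that without, opposite to the RPB1 line.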

How the results depend on the processing

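The count of genes that differed between IAA and untreated RPB1 cells was 11894 and lay between 10490 and 12859 under each alternative run: median-of-ratios factors 11988, total counts 12012, mitochondrial-genome mRNAs 10490, no filter 12859, DESeq2 10827, the 2 groups fitted alone 11740, and 10971 to 11173 with 1 library left out. The count against wild type was 5783 with mitochondrial-genome mRNAs held level and 7612 to 8089 with 1 library left out, and that against RPB2 was 10265 to 10876. The 1 h count of 3894 was 1309 with mitochondrial-genome mRNAs held level, 2596 with DESeq2, 5480 with its groups fitted alone and 1389 to 2726 with 1 library left out. The cause was not tested. Spearman's rho of span with change was −0.23 to −0.184 with 1 library left out. Of the 60 lists, 39 had a median below 0, against 53 with mitochondrial-genome mRNAs held level. With those mRNAs held level, the log2 changes of Myc (−0.45), Pou5f1 (−0.39) and Polr2d (−0.065) turned below 0. Of the 144 genes named and called at 12 h, 15 lost the call or the direction under at least 1 alternative, each of them except Polr2g with mitochondrial-genome mRNAs held level. The 8 differences from wild type and 3 from RPB2 kept their calls under every alternative run. Of 51 calls at 1 h, 28 were lost under at least 1 alternative.

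Replicate numbers are shared across groups, but nothing in the labels says that they mark a shared culture or day. Deviations of same-numbered IAA and untreated RPB1 libraries from their group means had a correlation of −0.0762 across 8737 genes. With a replicate block the counts were 11571 for the RPB1 line, 8192 against wild type, 10885 against RPB2 and 4207 at 1 h. The depth of the 4 libraries limits what can be called among low genes, and 6034 genes were not called.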

Other observations

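Some groups not described above held members that moved apart. Histone mRNAs of the replication-dependent kind normally end in a stem-loop rather than a poly(A) tail. All 70 of them summed to 110.2 and 113 CPM in IAA cells and 39.9 and 35.5 CPM in untreated cells. Hist2h2be had 22.9 and 19.4 CPM with IAA and 1.00 and 0.420 CPM without (log2 fold change 4.84 ± 0.34, adjusted p = 1.43e-16, edgeR), and Hist3h2ba had 10.5 and 11 CPM with IAA and 0.401 and 0.420 CPM without. The polyadenylated variant H2afz, which marks promoters, fell to 388 and 434 CPM, against 745 and 713 CPM in untreated cells, and the linker histone H1fx rose to 144 and 135 CPM, against 61.7 and 57.5 CPM. Of the NF-kB targets, 4 rose and 4 fell of 11 expressed. Icam1, an adhesion molecule, had 374 and 376 CPM with IAA and 66.3 and 68.2 CPM without (log2 fold change 2.48 ± 0.095, adjusted p = 5.32e-26, edgeR), while Nfkb1 (−1.81 ± 0.17) and Relb (−1.67 ± 0.14), subunits of the factor, fell.

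In metabolism, the glutathione-making ligase parted, with its catalytic subunit Gclc at 174 and 177 CPM with IAA and 64.5 and 70.9 CPM without and its modifier Gclm at 42.4 and 30.3 CPM with IAA and 115 and 109 CPM without. The glucose carriers Slc2a1 (−1.02 ± 0.096) and Slc2a3 (−1.10 ± 0.075) fell within a glycolysis list of 3 rises and 8 falls of 19. In the Wnt list, Tcf7l1, a TCF factor of the pathway, fell (−1.37 ± 0.11). The target Sp5 stood higher (30.6 and 34.6 CPM with IAA, 5.01 and 6.30 CPM without). Among clock genes Clock fell (−1.08 ± 0.16) and its repressor Nr1d1 rose (49.2 and 52.6 CPM with IAA, 13 and 15.1 CPM without). The proteasome gave 3 rises and 17 falls of 36, with Psmd11 of its regulatory cap at 112 and 106 CPM with IAA and 209.7 and 209 CPM without. Ubb, a polyubiquitin gene, fell (−0.69 ± 0.14).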
